A study of Mesocricetus auratus with 10 samples.

Results

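The fatty acyl desaturases FADS1, FADS2 and FADS3 and the elongases ELOVL1, ELOVL2 and ELOVL5 were followed in the livers of golden hamsters (Mesocricetus auratus) on 2 diets. These 6 genes, of 14434 gene names on the arrays, were taken through every non-control probe whose design carries 1 of their names, 30 probes of 116452 in all. The tested livers came from 10 male hamsters fed a high fat diet (HFD), each measured on its own. The comparator was 1 RNA pool made from livers of 10 hamsters on a standard diet (STD), which took part in every hybridisation, so that no STD animal was measured singly. Each HFD RNA met the pool on 2 custom Agilent arrays of 2 colours, with the dyes exchanged on the second one, which gave 20 arrays. Age, strain, the make-up of the diets and the time on them are not stated in the labels. Values are log2 ratios of an HFD liver over the STD pool, as the mean of both arrays of an animal, with the SD between the 10 animals. A ratio was tested against 0 by a two-sided test in limma, adjusted by Benjamini-Hochberg over all genes or probes tested, and was called at an adjusted p under 0.05. Since the pool is taken as fixed, the spread of the STD animals does not enter these p-values and any peculiarity of the pool is shared by all 10 ratios.

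These enzymes turn the plant-derived essential fatty acids linoleate and alpha-linolenate into long-chain polyunsaturated fatty acids, and liver is the main organ in which this takes place. FADS2 inserts the first double bond (delta-6 desaturation), ELOVL5 lengthens the product, FADS1 inserts a further double bond (delta-5 desaturation) to give arachidonate and eicosapentaenoate, and ELOVL2 lengthens these on the way to docosahexaenoate, whose last step is a round of oxidation in peroxisomes. FADS3 acts on sphingoid bases, and ELOVL1 makes very long saturated and monounsaturated chains. In RefSeq's gene table for the assembly BCM_Maur_2.0, which holds all 6 symbols, FADS2 and FADS3 were listed with 0 entries between them and FADS1 and FADS2 with 2. The array files mark all 30 probes as unmapped, so that no genomic position is given for them here.

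The probes are 60 bases long, and 1 desaturase region that 3 of them share shows how the genes are told apart and on which strand they were read. Capitals mark the bases that the FADS2 probe has in common with the reverse complement of the FADS3 probe, and those that the other sequences have in common with the FADS2 probe.
FADS2 CUST_56781: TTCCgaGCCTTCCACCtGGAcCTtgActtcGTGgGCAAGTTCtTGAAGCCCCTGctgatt
FADS1 CUST_82408: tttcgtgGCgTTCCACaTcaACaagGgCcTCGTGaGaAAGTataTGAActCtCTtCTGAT
FADS3 CUST_14986, reverse complement: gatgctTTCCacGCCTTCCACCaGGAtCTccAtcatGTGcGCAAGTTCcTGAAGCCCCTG
FADS3 CUST_14986, as on the array: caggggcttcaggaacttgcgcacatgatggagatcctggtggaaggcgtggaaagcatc
The FADS1 and FADS2 probes ran the same way, with 35 of 53 bases identical. The FADS3 probe matched FADS2 at 42 of 54 bases only as its reverse complement, and as printed on the array its best match to any FADS2 probe was 10 of 11 bases. The FADS3 probe CUST_14987 likewise matched the FADS1 probe CUST_82407 on the opposite strand, at 25 of 34 bases. The same was seen between the elongases, where capitals mark the bases shared by both sequences.
ELOVL5 CUST_56595: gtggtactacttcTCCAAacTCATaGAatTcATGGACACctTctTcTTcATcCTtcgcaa
ELOVL1 CUST_64319, reverse complement: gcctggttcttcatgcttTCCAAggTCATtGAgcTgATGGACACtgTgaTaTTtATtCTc
The ELOVL1 probe matched at 28 of 41 bases as its reverse complement, and as printed its best match to any ELOVL5 probe was 9 of 9 bases. Those probes of FADS3 and ELOVL1 thus lie on the strand opposite to their relatives in FADS1, FADS2 and ELOVL5. The brightest probes of both genes had weaker matches, also on the opposite strand. FADS3 CUST_73818 matched FADS2 CUST_56781 at 15 of 19 bases, and ELOVL1 CUST_64317 matched ELOVL5 CUST_56597 at 18 of 27. Such short matches do not settle the strand of these 2 probes. FADS3 CUST_14986 stood well above background on 10 arrays in HFD RNA and on 9 in the pool, CUST_14987 on 11 and 6, and ELOVL1 CUST_64319 on 15 and 12. Whether the strand bears on these low signals was not tested, and the values of FADS3 and ELOVL1 below are those of the probes that bear their names.

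HFD livers had less RNA of both desaturases and of the late elongase of polyunsaturated fatty acid synthesis. FADS1 and ELOVL2 each stood at 58.3% of the STD pool, and FADS2 at 80.7% by its brightest probe and lower by its 9 others. The size for ELOVL2 depended on the arrays taken. Its mean log2 ratio was -0.78 with all 20 arrays and -0.37 without 6 of them, against -0.78 and -0.79 for FADS1. ELOVL5, the elongase between them, was not called, nor was ELOVL1, and FADS3 was 1.06-fold higher. By the brightest probe of a gene, 3 of the 6 genes fell and 1 rose, where 28.9% of the 13827 named genes tested were called lower and 31.4% higher (60.3% in either direction). All 30 probes passed the filter on dim probes (well above background in either RNA on at least 10 of the 20 arrays), and 26 were well above background in both RNAs on all 20. Of the 30, 21 were called lower and 1 higher, where 28.2% of all 61679 named probes tested were lower and 31% higher (59.2% in either direction). The probes of a gene share its transcripts and are not independent of each other. In whole liver, fewer cells of a type and less RNA per cell cannot be told apart.

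**Figure D1:**
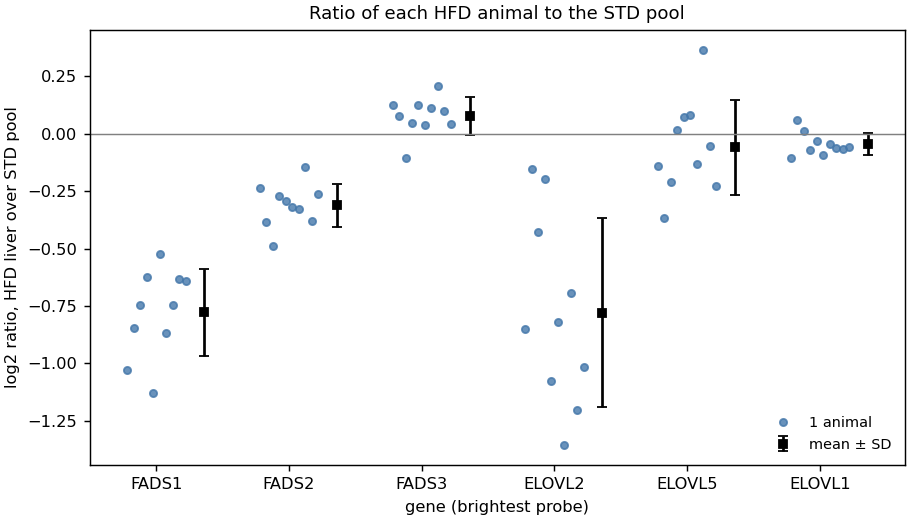
Log2 ratio of HFD liver over the STD pool (y axis) for the brightest probe of each gene (x axis), with 1 point per animal and the mean ± SD (n = 10) as a black square. All 10 points of FADS1, FADS2 and ELOVL2 lie below 0, ELOVL2 has the widest spread (SD 0.41), and the points of ELOVL5 and ELOVL1 lie on both sides of 0.

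FADS1, the delta-5 desaturase, was lower in every HFD liver. Its brightest probe, CUST_82415, had a log2 ratio of -1.13 in the lowest animal, -0.75 at the median and -0.52 in the highest. No animal came near 0. Normalised log2 signals averaged 11.39 ± 0.21 in HFD livers and 12.17 ± 0.10 in the STD pool (SD over the 10 HFD animals and their 10 values of the pool). The mean log2 ratio was -0.78 ± 0.19 (SD, n = 10, limma adjusted p = 1.04e-07), a level 1.71-fold higher in the STD pool, and 119th from the lowest of all genes tested. All 8 FADS1 probes were called lower with mean ratios between -0.78 and -0.62, and each of them was below 0 in 10 of 10 animals. Among the 2165 named genes with at least 8 kept probes, 126 had every probe called lower. The FADS1 mean was -0.86 on the arrays with HFD in Cy5 and -0.70 on those with HFD in Cy3 (limma on single arrays with a dye term, adjusted p = 0.0809) by the brightest probe, but the difference between orientations was called for 6 of the 8 FADS1 probes. CUST_82412, for example, gave -0.97 with HFD in Cy5 and -0.39 with HFD in Cy3 (adjusted p = 1.08e-05).

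FADS2, the delta-6 desaturase that opens the pathway, was lower by all 10 of its probes, but the size depended on the probe. The brightest, CUST_56782, gave -0.31 ± 0.09 (SD, n = 10, limma adjusted p = 2.49e-06), from -0.49 in the lowest animal through a median of -0.31 to -0.14 in the highest. Normalised log2 signals of this probe averaged 11.37 ± 0.16 in HFD livers and 11.68 ± 0.10 in the pool. The 9 other FADS2 probes had mean ratios between -0.87 and -0.55, and their average was -0.65 ± 0.21, between -0.94 and -0.38 in single animals. The brightest probe thus gave the smallest fall of the 10, and the mean of all probes was -0.62 ± 0.19 (limma adjusted p = 1.71e-06), 1.53-fold higher in the STD pool. The largest fall was that of CUST_71687, which had -1.18 in the lowest animal, -0.83 at the median and -0.63 in the highest, with a mean of -0.87 ± 0.16 (limma adjusted p = 1.32e-08 over all probes). This spread of 0.56 between the probes of FADS2 compares with 0.25 among those of ELOVL5, 0.15 among those of FADS1 and 0.0081 between those of ELOVL2.

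The FADS2 probes belong to 3 assembled transcripts of the array's design, and the sequences of the probes with the smallest and the largest falls are printed here. CUST_56782, with the smallest fall, is followed by the probes with the largest and the second largest fall.
FADS2 CUST_56782: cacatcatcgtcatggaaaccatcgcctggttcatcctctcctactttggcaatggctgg
FADS2 CUST_71687: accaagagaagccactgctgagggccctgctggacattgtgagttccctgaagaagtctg
FADS2 CUST_63780: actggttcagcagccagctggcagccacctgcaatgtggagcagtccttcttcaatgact
CUST_71687 was lower than CUST_56782 in 10 of 10 animals by 0.56 ± 0.18 on the log2 scale, and CUST_63780 in 10 of 10 by 0.42 ± 0.20. All 3 had signals well above background in both RNAs on all 20 arrays. CUST_56783 and CUST_63778, on 2 of the 3 transcripts, have the same sequence, which is printed once.
FADS2 CUST_56783: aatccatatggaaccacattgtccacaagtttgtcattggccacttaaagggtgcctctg
Their ratios differed by no more than 0.046 in any animal, with means of -0.67 ± 0.23 and -0.68 ± 0.24. CUST_56781 and CUST_63776, which have 51 bases in common, gave -0.55 ± 0.26 and -0.56 ± 0.28. CUST_56782 itself has 17 bases in common with CUST_63777, which gave -0.62 ± 0.19 and was the lower of both in 10 of 10 animals. The cause of the smaller fall at CUST_56782 was not tested.

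**Figure D2:**
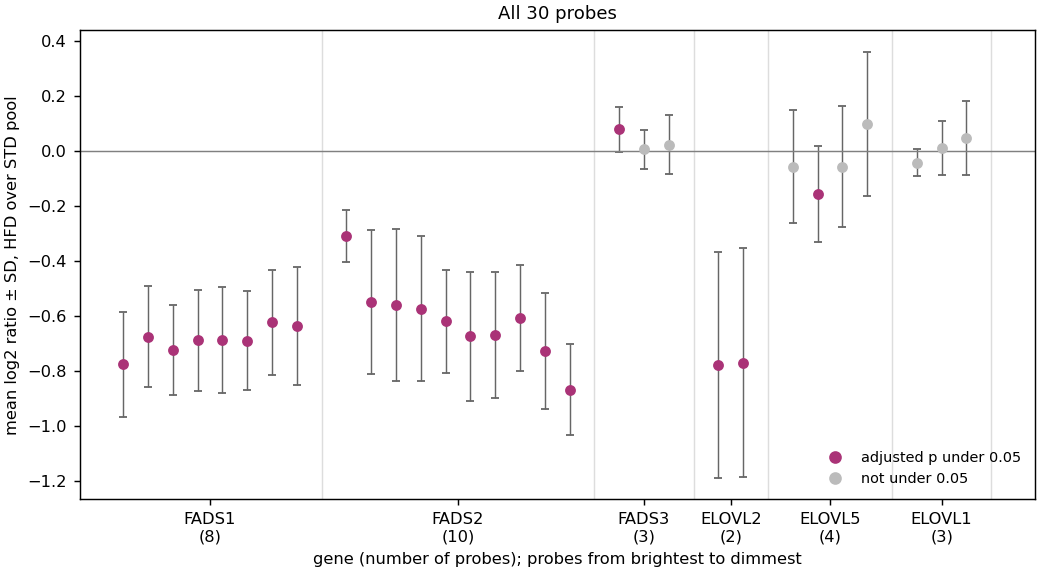
Mean log2 ratio of HFD liver over the STD pool with its SD between the 10 animals (y axis) for all 30 probes, grouped by gene and ordered from the brightest to the dimmest within a gene (x axis), with colour for an adjusted p under 0.05. All 8 FADS1, all 10 FADS2 and both ELOVL2 probes lie below 0 and were called, and the brightest FADS2 probe (-0.31) stands above the 9 others.

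ELOVL2, which lengthens the products of FADS1, fell as far as FADS1 on average but very unevenly. Its brightest probe, CUST_34582, had a log2 ratio of -1.36 in the lowest animal, -0.84 at the median and -0.15 in the highest. Animals 2, 3 and 4 had -0.15, -0.43 and -0.20, and the other 7 lay between -1.36 and -0.70. Normalised log2 signals averaged 10.01 ± 0.38 in HFD livers and 10.79 ± 0.06 in the pool. The mean ratio was -0.78 ± 0.41 (SD, n = 10, limma adjusted p = 4.9e-05), below 0 in 10 of 10 animals, and the second probe, CUST_34581, gave -0.77 ± 0.42. The fall was deep on 6 arrays, those with HFD in Cy3 of animals 5 to 10, and the other 14 were therefore also fitted alone. The 6 arrays came from several slides and scan sessions, and why they differed was not tested. On these 6 the mean of both ELOVL2 probes lay between -2.06 and -1.13, and on the arrays of the same animals with HFD in Cy5 between -0.88 and -0.20. Without the 6 arrays the mean log2 ratio of ELOVL2 was -0.37 (limma adjusted p = 0.00174), a smaller fall on the log2 scale. On the Cy3 arrays of animals 1 to 4 the mean of both probes lay between -0.58 and 0.020, and on their Cy5 arrays between -1.14 and -0.099, where animal 1 had the lowest value and overlapped the 6 arrays.

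On the same 6 arrays most FADS2 probes fell less or were above the pool. CUST_56781 had 0.18, 0.17, 0.35 and 0.37 in animals 6, 8, 9 and 10, and -0.18 and -0.11 in animals 5 and 7. On the Cy5 arrays of animals 6, 8, 9 and 10 it had -0.79, -0.71, -0.92 and -0.80. The mean of all FADS2 probes lay between -0.43 and -0.034 on the 6 arrays. It lay between -0.81 and -0.41 on the Cy3 arrays of animals 1 to 4, and between -1.08 and -0.67 on the Cy5 arrays of animals 5 to 10. For FADS1 these ranges were -0.72 to -0.23, -0.73 to -0.41 and -1.17 to -0.53, so that its Cy3 arrays overlapped. The brightest probes gave -0.79 for FADS1 and -0.31 for FADS2 without the 6 arrays, against -0.78 and -0.31 with them. Without the 6 arrays all 10 FADS2 probes and all 8 FADS1 probes were still called lower, with means from -0.85 to -0.31 and from -0.79 to -0.61, where 18% of all named probes were called lower on these 14 arrays. The brightest FADS2 probe gave -0.50 with HFD in Cy5 and -0.12 with HFD in Cy3 (dye term, limma adjusted p = 0.00026), and ELOVL2 gave -0.47 and -1.08 (adjusted p = 0.0238). A difference between orientations was called for 48.7% of all named genes and 45.4% of all named probes, and for 22 of the 30 probes described here.

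**Figure D3:**
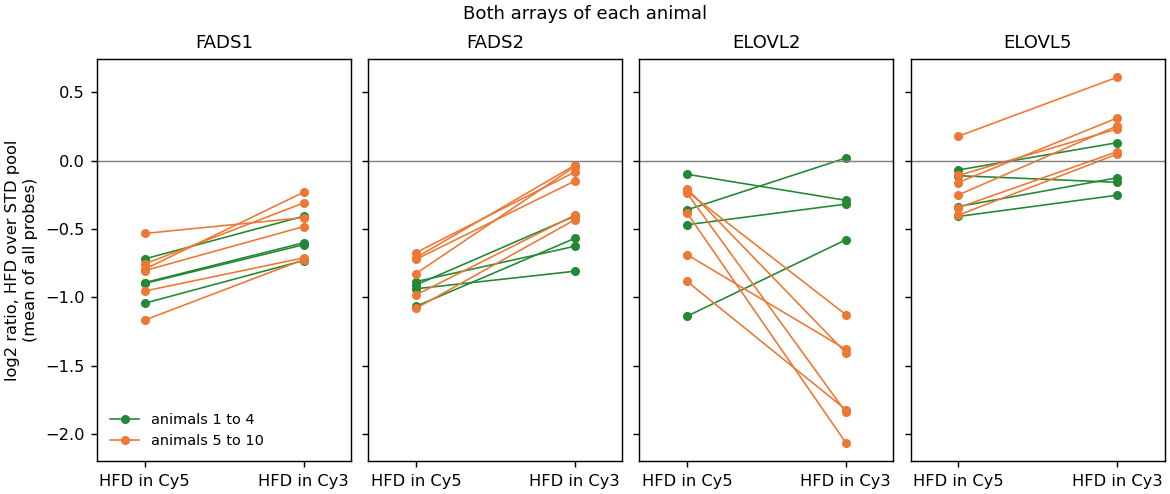
Log2 ratio of HFD liver over the STD pool, averaged over a gene's probes (y axis), on both arrays of each animal (x axis), with animals 1 to 4 in green and 5 to 10 in orange. On the arrays with HFD in Cy3, animals 5 to 10 lie between -2.06 and -1.13 for ELOVL2 and between -0.43 and -0.034 for FADS2, and all 20 values of FADS1 and all 20 of FADS2 lie below 0.

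ELOVL5, which lengthens the delta-6 product, was not called by its brightest probe, CUST_56596. Its ratio was -0.37 in the lowest animal, -0.09 at the median and 0.37 in the highest, with 6 animals below 0 and 4 above. Signals averaged 10.71 ± 0.26 in HFD livers and 10.77 ± 0.11 in the pool, and the mean ratio was -0.059 ± 0.21 (limma adjusted p = 0.392). Of its 4 probes 1 was called lower, CUST_56597, at -0.16 ± 0.18 (adjusted p = 0.0148), while CUST_56595 averaged 0.097 ± 0.26 (adjusted p = 0.259). Without the 6 arrays ELOVL5 averaged -0.15 and was called (adjusted p = 0.0241), as it was on the Cy5 arrays alone (-0.15), so that a fall of this gene depends on the arrays taken.

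The remaining genes changed little. FADS3 had a ratio of -0.10 in the lowest animal, 0.090 at the median and 0.21 in the highest by CUST_73818, and its mean of 0.078 ± 0.082 passed the threshold (limma adjusted p = 0.0286), above 0 in 9 of 10 animals. That call was lost in 11 of the 24 alternative settings, among them the mean of all 3 probes (0.035) and the 14 arrays (0.033). The median size of change over all named genes was 0.11. ELOVL1 averaged -0.044 ± 0.049 by CUST_64317 (adjusted p = 0.103), from -0.10 to 0.062, and its 2 other probes 0.0092 ± 0.099 and 0.047 ± 0.13. FADS3 signals averaged 7.17 ± 0.14 in HFD livers and 7.09 ± 0.10 in the pool, and ELOVL1 signals 7.14 ± 0.12 and 7.18 ± 0.10. By the processed signals of the scanner software FADS3 averaged 0.15 and ELOVL1 -0.070, and by the authors' ratios 0.13 and -0.12. Whether the processing used here shrinks ratios at such dim signals was not tested.

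The ratios of the members were set against each other within animals with an exact sign-flip permutation test (two-sided, over all sign patterns of the 10 animals, 15 pairs, Benjamini-Hochberg over the pairs). FADS1 fell further than ELOVL5 in 10 of 10 animals, by 0.72 on the log2 scale (adjusted p = 0.00325, 95% interval of the difference -0.91 to -0.53). ELOVL2 fell further than ELOVL5 in 9 of 10 (-0.72, -1.07 to -0.37, adjusted p = 0.0117), but the size differed between the dye orientations. On the Cy5 arrays alone ELOVL2 minus ELOVL5 was -0.32 (-0.60 to -0.036, ELOVL2 lower in 8 of 10, adjusted p = 0.0293). On the Cy3 arrays alone it was -1.12 (-1.76 to -0.48, 9 of 10, adjusted p = 0.0163). FADS1 and ELOVL2 differed by 0.0013 with an interval of -0.30 to 0.30 (adjusted p = 0.99), which leaves room for a difference of that size either way, and on the Cy5 arrays alone FADS1 was the lower by 0.38 (adjusted p = 0.00652). FADS1 minus FADS2 was -0.47 by the brightest probes (adjusted p = 0.00325) but -0.072 by the mean of all probes (-0.16 to 0.011, adjusted p = 0.126), so that the difference between both desaturases rests on the probe chosen for FADS2. FADS1 and FADS2 were each lower than FADS3, ELOVL1 and ELOVL5 in 10 of 10 animals, by brightest probes and by the mean of all probes, with adjusted p of 0.00325 and 0.00366, which go with the smallest p the test allows (0.00195). On the Cy3 arrays alone FADS2 minus ELOVL1 was -0.022 (lower in 6 of 10 animals, adjusted p = 0.77), and FADS2 was lower than ELOVL5 in 7 of 10 (-0.16, adjusted p = 0.0425). In all, 13 of the 15 pairs differed by brightest probes and 9 by the mean of all probes.

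The FADS1 and FADS2 ratios of an animal were correlated, but the relation failed the correction for multiple tests. Over the 10 animals the mean ratios of all FADS1 and all FADS2 probes gave Pearson r = 0.80 (permutation p = 0.0108, adjusted p = 0.0648 over 6 relations) and Spearman rho = 0.75 (adjusted p = 0.11). Without the 2 animals farthest from the FADS1 median r was 0.79, and it was 0.73 on the Cy5 arrays and 0.80 on the Cy3 arrays, but -0.11 by the brightest probes. Animals 1, 5 and 7 had FADS1 means of -0.89, -0.95 and -0.83 and FADS2 means of -0.87, -0.76 and -0.69, while animals 6, 9 and 10 had FADS1 means of -0.47, -0.51 and -0.53 and FADS2 means of -0.44, -0.44 and -0.37. For ELOVL2, r was 0.086 with FADS1 (permutation adjusted p = 0.807) and -0.30 with FADS2 (adjusted p = 0.784), and it differed in sign between the orientations. With FADS1 it was 0.76 on the Cy5 arrays and -0.38 on the Cy3 arrays, and with FADS2 0.57 and -0.72.

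As a description, with no test, the genes whose ratios followed those of each member most closely over the 10 animals were taken from all named genes. Here each gene stood by its brightest probe, which for FADS2 was the probe with the smallest fall. For FADS1 they were AU019823 (r = 0.93), SHFM1 (0.89) and NADSYN1 (0.85), and for FADS2 LDLRAD3 (0.95), GRIN2B (0.94) and MLEC (0.93). For ELOVL2 they were S1PR4 (0.96), NDUFS8 (0.96) and PDE3B (0.96), with r between 0.84 and 0.97 in each orientation taken alone. For ELOVL5 they were FSTL3 (0.94), ACADSB (0.94) and AKR1C6 (0.92), with r between 0.85 and 0.98. For FADS2 the r within an orientation was between 0.12 and 0.76, and for FADS1 between 0.39 and 0.91. FADS3 was followed by THSD1 (0.94), GALNT2 (0.94) and RPS6KA4 (0.91), and ELOVL1 by LMBR1L (0.96), BCL6 (0.93) and SCTR (0.91), whose r on the Cy5 arrays was between -0.33 and -0.19. All these ratios come from the same arrays and the same pool.

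The elongases catalyse only the first of 4 reactions of an elongation cycle, and its other reactions have their own enzymes. Of 11 gene names listed for them 4 were measured, of which 3 fell and 1 rose, with a median log2 ratio of -0.44, where the median of all named genes was 0.0082. HSD17B12, the 3-ketoacyl-CoA reductase, averaged -1.10 ± 0.38 (limma adjusted p = 1.45e-06) and was below 0 in 10 of 10 animals, with 5 of 5 probes called lower. TECR, the enoyl-CoA reductase that ends the cycle, averaged -0.63 ± 0.14 (adjusted p = 5.88e-08), with 6 of 6 probes called lower. The dehydratase genes PTPLB and PTPLA, now named HACD2 and HACD1, averaged -0.25 ± 0.10 (adjusted p = 2.45e-05) and 0.13 ± 0.11 (adjusted p = 0.00579). Without the 6 arrays HSD17B12 averaged -0.77 and TECR -0.51, both still called, and PTPLA was no longer called.

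Of 7 gene names listed for the electron supply of desaturases through cytochrome b5, 4 were measured. These 4 changed less, and by the brightest probe 3 rose while 1 fell. Whether the 4 serve FADS1 and FADS2 in these livers was not tested. CYB5B averaged -0.18 ± 0.10, against 0.20 ± 0.17 for CYB5R1, 0.10 ± 0.13 for CYB5R3 and 0.072 ± 0.063 for CYB5R4. The limma adjusted p lay between 0.000379 and 0.0369. The call of CYB5R3 rests on its brightest probe, since 5 of its 6 probes were called lower.

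In the list for enzymes of saturated and monounsaturated fatty acids, 9 of 15 measured genes rose, 1 fell and 5 were not called, with a median of 0.14. The list also holds the desaturase genes DEGS1, DEGS2 and FADS6, which are not stearoyl-CoA desaturases. DEGS1 (0.14) and FADS6 (0.34) are among the 9 that rose. SCD3, of the stearoyl-CoA desaturase family, averaged 0.57 ± 0.33 (limma adjusted p = 0.000116). ELOVL6, which lengthens palmitate to stearate, averaged 0.56 ± 0.47 (adjusted p = 0.00163, above 0 in 9 of 10 animals). Only 1 of 2 SCD3 probes and 5 of 12 ELOVL6 probes were called higher, and 0 of either gene lower. The gene listed as SCD averaged 0.080 ± 0.094 (adjusted p = 0.0373). The array's design names 5 SCD genes, closely related in sequence, and all 5 were called higher, but signal of 1 gene on probes of another cannot be told apart here. FASN, the fatty acid synthase, averaged -0.17 ± 0.11 (adjusted p = 0.000855) with 26 of 26 probes called lower, although by its brightest probe it was not called without the 6 arrays (-0.066, adjusted p = 0.155). The acetyl-CoA carboxylase genes also differed between probes, as seen after their values were known: ACACA, counted as risen by its brightest probe, had 15 probes called lower and 7 higher, and ACACB, not called, had 27 of 28 called lower.

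By the brightest probe and with all arrays, genes of the peroxisomal steps that finish docosahexaenoate synthesis were lower or not called. Of 16 measured genes 9 fell and 0 rose in this fit, while 1 was called higher on the 14 arrays, and the median was -0.17. The gene above 0 with the lowest limma p was ACOX2 (0.14 ± 0.37, adjusted p = 0.25). In this fit 0 genes thus rose at an unadjusted p under 0.05 as well. ACOX2 was the gene called higher on the 14 arrays (0.52, limma adjusted p = 7.79e-07). With all arrays, 4 of its 9 probes were called higher and 0 lower. EHHADH, the bifunctional enzyme of peroxisomal beta-oxidation, averaged -1.02 ± 0.19 (limma adjusted p = 8.18e-09) and ECI2, an enoyl-CoA isomerase, -0.80 ± 0.16 (adjusted p = 2.29e-08), each below 0 in 10 of 10 animals. ACAA1B, a thiolase, and DECR2, a dienoyl-CoA reductase, had the smallest called falls, -0.18 ± 0.17 and -0.16 ± 0.13. HSD17B4, the second bifunctional enzyme (-0.51 ± 0.46), was chosen for naming after its value was seen. HSD17B4 averaged -0.072 and was not called without the 6 arrays (adjusted p = 0.373), and neither was ACAA1B (-0.013).

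Among the genes that activate fatty acids and place them in phospholipids, 8 of 25 fell and 7 rose, with a median of 0.0099, close to the 28.9% lower and 31.4% higher of all named genes. ACSL5 (-0.96 ± 0.50) and ACSL6 (-0.58 ± 0.37), acyl-CoA synthetases, fell, whereas AGPAT5 (0.42 ± 0.12) and LPCAT2 (0.35 ± 0.09), acyltransferases of phospholipid synthesis, rose. ACSL5 averaged -0.63 on the 14 arrays. Of the enzymes that turn arachidonate and its relatives into eicosanoids and other oxylipins, 9 of 20 fell and 6 rose, with a median of -0.031, where the share of higher calls is near that of all named genes (31.4%). PTGR1, a prostaglandin reductase (-0.77 ± 0.36, but -0.37 on the 14 arrays), and EPHX1, an epoxide hydrolase (-0.32 ± 0.18), fell, and CBR1, a carbonyl reductase (0.36 ± 0.14), and CYP4F3, an omega-hydroxylase of leukotrienes (0.26 ± 0.17), rose. The limma adjusted p of the genes named in this paragraph lay between 6.74e-07 and 0.000529.

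Regulators of the desaturase and elongase genes moved in both directions, with 10 of 25 lower, 6 higher and a median of -0.057, beside 28.9% lower and 31.4% higher of all named genes. Of the 6, RXRA and SCAP were higher by the brightest probe but had more probes called lower (5 and 6) than higher (2 and 4), and were picked out after their values were seen. SREBF1, the transcription factor of lipogenesis that is known to drive FADS1 and FADS2, rose by 1.27 ± 0.28 on the log2 scale (limma adjusted p = 3e-08, 10 of 10 animals, 1 probe), while both of these genes fell. INSIG1, which retains the SREBP precursors in the endoplasmic reticulum and is itself a target of SREBPs, averaged -1.27 ± 0.22 (adjusted p = 4.55e-09, 1 probe). MLXIPL, which encodes the carbohydrate response factor ChREBP, rose by 0.59 ± 0.16 (adjusted p = 2.67e-07) with 8 of 8 probes called higher. HNF4A averaged -0.39 ± 0.19 (adjusted p = 4.02e-05) with 7 of 7 probes called lower. PPARA, the fatty acid receptor that is also known to act on FADS1 and FADS2, averaged -0.32 ± 0.24 (adjusted p = 0.000942), with 5 of 6 probes called lower, and was chosen for naming after its value was seen. Over all 7 lists, 41 of the 109 genes measured fell and 32 rose, beside 28.9% and 31.4% of all named genes, and 17 of these 73 calls were lost without the 6 arrays, none with a change of sign.

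**Figure D4:**
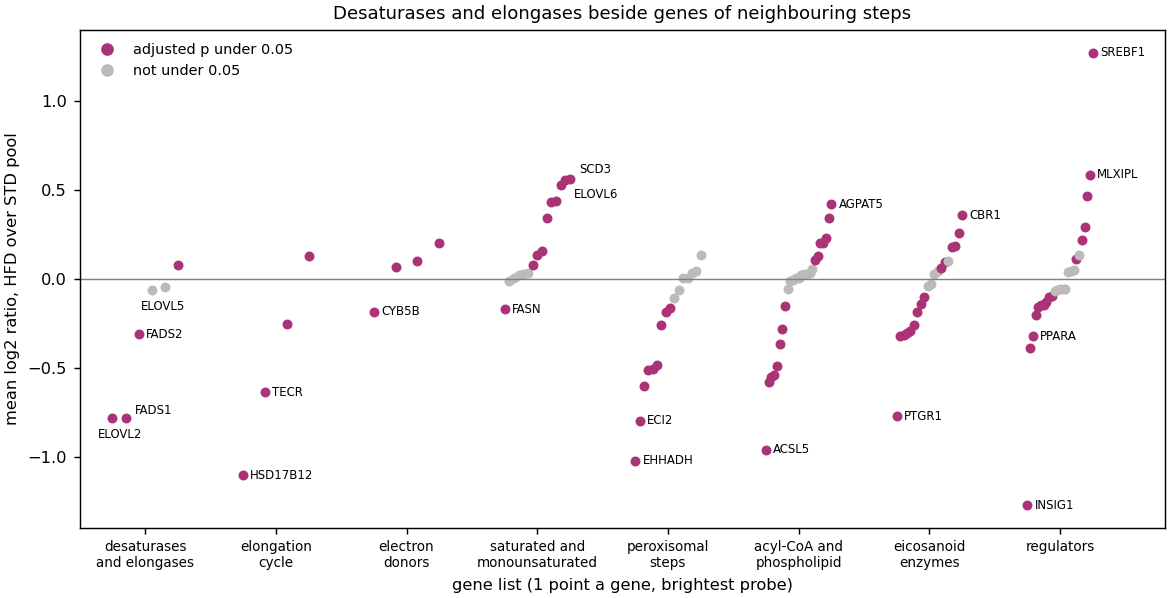
Mean log2 ratio of HFD liver over the STD pool (y axis) for the brightest probe of each gene in the desaturase and elongase group and in the 7 lists of neighbouring steps (x axis), with 1 point per gene and colour for an adjusted p under 0.05. FADS1, ELOVL2, HSD17B12, TECR, EHHADH and ECI2 lie between -1.10 and -0.63, SCD3 and ELOVL6 at 0.57 and 0.56, and SREBF1 (1.27) and INSIG1 (-1.27) at the ends of the regulators.

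Markers of cell types were measured in the same livers, and their relation to the ratios of the 6 genes was not tested. Of all named genes, 28.9% were called lower and 31.4% higher. Of 14 hepatocyte markers measured 10 were called lower and 1 higher, with a median log2 ratio of -0.36, although their summed log2 level was 19.68 to 19.97 in HFD livers and 19.77 to 19.96 in the pool. Of 11 macrophage and Kupffer cell markers 6 were higher and 3 lower, and their summed log2 level was 14.89 to 15.67 in HFD livers and 14.46 to 14.73 in the pool. Of 8 lymphocyte markers 6 were lower and the highest ratio was 0.047, with sums of 11.34 to 11.66 and 11.52 to 11.68. Stellate cell, endothelial, cholangiocyte and adipocyte markers gave 8 lower and 7 higher calls of 31. Arrays give no level of 0, and the part of cell make-up in the falls of FADS1, FADS2 and ELOVL2 was not tested. Across the 20 arrays, 77.2% to 97.7% of probes exceeded background clearly in HFD RNA and 76.7% to 96.7% in the pool, with no saturated spot, and the number of arrays limits the precision. There were 7 slides and 3 scan sessions. FADS1 averaged -0.79 in the first session and -0.77 in the third, FADS2 -0.28 and -0.33, and ELOVL2 -0.83 and -0.65, while the second session held 1 array.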

How the data were processed

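Liver RNA was labelled from 100 ng with a whole-transcript kit, per the labels' protocols. The deposited intensities (mean spot brightness and median local background, green and red) were made with Agilent Feature Extraction 10.7.3.1, per the file headers, as were the processed intensities used as an alternative. Log2 ratios of each probe and animal were deposited by the authors too, for which the submitters' processing notes name limma. Their normalisation and centring stay unknown, and they correlated at r of 0.834 to 0.91 with the ratios computed here. The dye of each RNA, and so the direction of every ratio, was read from the array names. Intensities were background-corrected (normexp, offset 50) and loess-normalised within arrays in limma 3.58.1 under R 4.3.3, without controls and outlier spots. Signals per RNA are from loess and Aquantile. Spots of a probe, then both arrays of an animal, were averaged. The brightest kept probe stood for a gene. lmFit and eBayes tested 13827 genes and, separately, 61679 probes. Differences between dye orientations, and the 14 arrays, were fitted on single arrays, with dye orientation as a term and animal as random block. On simulated ratios for 13827 genes, 86% of changes of -0.3 and 100% of those of -0.7 were recovered. Named from each list were the 2 highest and 2 lowest called genes, others being marked. Members and lists were chosen with earlier results of these data known. Some items are not reported here.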

Additional observations from a re-analysis of the deposited data

Results flagged for a closer look

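The ELOVL5 probe CUST_56594 had a log2 ratio of 0.4281 in animal 8, and the next highest of the 10 animals had 0.062. This gap was 0.49 of the whole range of the group, above Dixon's critical value at the 95% level for 10 values. It was the 1 case among the 30 probes tested this way, where chance alone marks about 1 group in 20. The brightest ELOVL5 probe, CUST_56596, also had its highest value in animal 8, at 0.37.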

How the results depend on the processing

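At the level of genes, the falls of FADS1, FADS2 and ELOVL2 were called under all 24 alternatives. Their log2 ratios were -0.86 to -0.69, -0.62 to -0.12 and -1.08 to -0.37. With HFD in Cy3 only, FADS2 passed narrowly by its brightest probe (-0.12, limma adjusted p = 0.048), and 7 of its 10 probes were called. Member probes called lower numbered 17 to 23 over the settings. ELOVL1 reversed with the mean of all probes (0.0038) and with HFD in Cy5 only (0.012), and was called with HFD in Cy3 only (-0.10) and with slide as a block (-0.045). ELOVL5 reversed with HFD in Cy3 only (0.036) and was called with HFD in Cy5 only (-0.15) and on the 14 arrays (-0.15). FADS3 lost its call with median centring (0.058), the mean of all probes (0.035), HFD in Cy5 only (0.034), the 14 arrays (0.033) and scan sessions 1 (0.070) and 3 (0.074) alone, and without animals 1, 5, 7, 8 or 9. The cause was not tested. Genes called higher among the members were then 0, and member probes called higher were 0 with median centring, Cy5 only and either session, and 2 with Cy3 only. Leaving out 1 animal at a time gave ratios of 0.063 to 0.098 for FADS3, -0.056 to -0.038 for ELOVL1 and -0.11 to -0.025 for ELOVL5, 0 to 1 member genes and 0 to 2 member probes called higher. Without animal 2, ELOVL1 was called (-0.056, adjusted p = 0.0338). Session 3 alone gave 2735 higher and 2360 lower named genes, and the 14 arrays gave 2529 lower ones. Pairs of members that differed numbered 13 by the brightest probe, 9 by the mean of all probes, 13 with HFD in Cy5 only and 11 with HFD in Cy3 only, alternatives chosen after seeing the data. No paired analysis was possible because the STD animals were pooled and only HFD animals carry numbers. Dim signals limit FADS3 and ELOVL1.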
